A study of Mus musculus with 40 samples.

Results

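The open-chromatin fragments described here lie at 10 genes of the transforming growth factor beta (TGF-beta) pathway, the ligands Tgfb1, Tgfb2 and Tgfb3, the receptors Tgfbr1, Tgfbr2, Tgfbr3 and Acvrl1, and the signal transducers Smad2, Smad3 and Smad4. A fragment belonged to a locus when its centre lay in the RefSeq gene body on mm10 or within 25 kb of it, and overlapping fragments were merged into regions. The 40 lists held 679 fragments at these loci of 458486 in all. They were 512 different fragments of 354627, and they formed 65 regions of 75060.

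The screen asked which pieces of open chromatin can switch on a reporter gene at each step from embryonic stem cell to blood progenitor. Fragments cut by the Tn5 transposase had been cloned before a minimal HSP68 promoter and Venus-YFP and placed in the Hprt locus of mouse HM-1 embryonic stem cells, a line whose own Hprt gene is not functional, so that a cell carried a single fragment. All groups shared this line, this integration site and this promoter, and differed in stage and in the YFP gate. The stages were embryonic stem cells (ES), FLK1-positive hemangioblast-like cells (HB), hemogenic endothelium 1 (HE1, KIT+ TIE2+ CD41-), hemogenic endothelium 2 (HE2, KIT+ TIE2+ CD41+) and hematopoietic progenitors (HP, KIT+ TIE2- CD41+). The stages after ES were differentiated in serum. Cells of each stage were sorted into Negative, Low, Medium and High YFP in 2 replicates, which gave 20 groups of 2 lists. A sort is 1 stage of 1 replicate, and there were 10. Its positive fragments are the different fragments of its Low, Medium and High lists, and its negative fragments are those of its Negative list. The lists carry no read counts and no expression values, so a cell type could not be checked against marker genes. Nothing states that the replicates came from separate cultures, so the p-values cannot be taken to measure the spread between cultures. Tests that compare counts within each sort treat every fragment as an independent unit, and their p-values reflect counting error alone. Tests that compare values across sorts measure the spread between these lists.

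TGF-beta ligands are released from a latent complex and bind TGFBR2, which activates TGFBR1 or, in endothelial cells, ACVRL1. TGFBR3, or betaglycan, presents ligand to the other receptors. The active receptors phosphorylate SMAD proteins, which join SMAD4, enter the nucleus and act on genes together with other transcription factors. In the vasculature the pathway is known for its part in endothelial maturation and in endothelial to mesenchymal change, and it bears on the formation of blood cells from hemogenic endothelium.

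Lists of replicate 1 held 4869 to 51146 fragments, and those of replicate 2 held 654 to 31915. Replicate 1 gave 85.9% of the fragments at the 10 loci, against 78.8% of all fragments. HE1 of replicate 1 alone gave 39.3% of them, against 32.1% of all. In that sort 58 of 83 negative fragments at the loci were also found in a positive gate, as were 71.3% of its negative fragments over the whole genome. In all sorts together, 64 of the 159 negative fragments at the loci were also in a positive gate of the same sort. A fragment in both kinds of gate is counted in both, and results without such fragments are given where they matter.

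The 10 loci differed widely in how many fragments they gave. Tgfb1 had 231 fragments in 10 regions, Acvrl1 137 in 12, and Smad3 136 in 16. Smad4 had 50 in 5 regions, Tgfb2 45 in 7, Tgfbr2 34 in 2, Tgfbr3 25 in 9 and Tgfbr1 19 in 2. Smad2 had 2 fragments and Tgfb3 had none. Per 100 kb of gene and flanks these were 339 fragments for Tgfb1, 205 for Acvrl1 and 84.4 for Smad3, against a median of 9.88 and an upper quartile of 43.1 over 26089 gene loci. Smad4, at 42.0 per 100 kb, stood close to that upper quartile, and Tgfbr3, at 10.7, close to the median. Among 4476 loci within 10% of the length of the Tgfb3 window, 16.4% also had no fragment. The nearest fragments lay 47.9 kb and 87.4 kb from the ends of Tgfb3, and a count of 0 of 458486 allows up to 0.0654 per 10000.

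**Figure D1:**
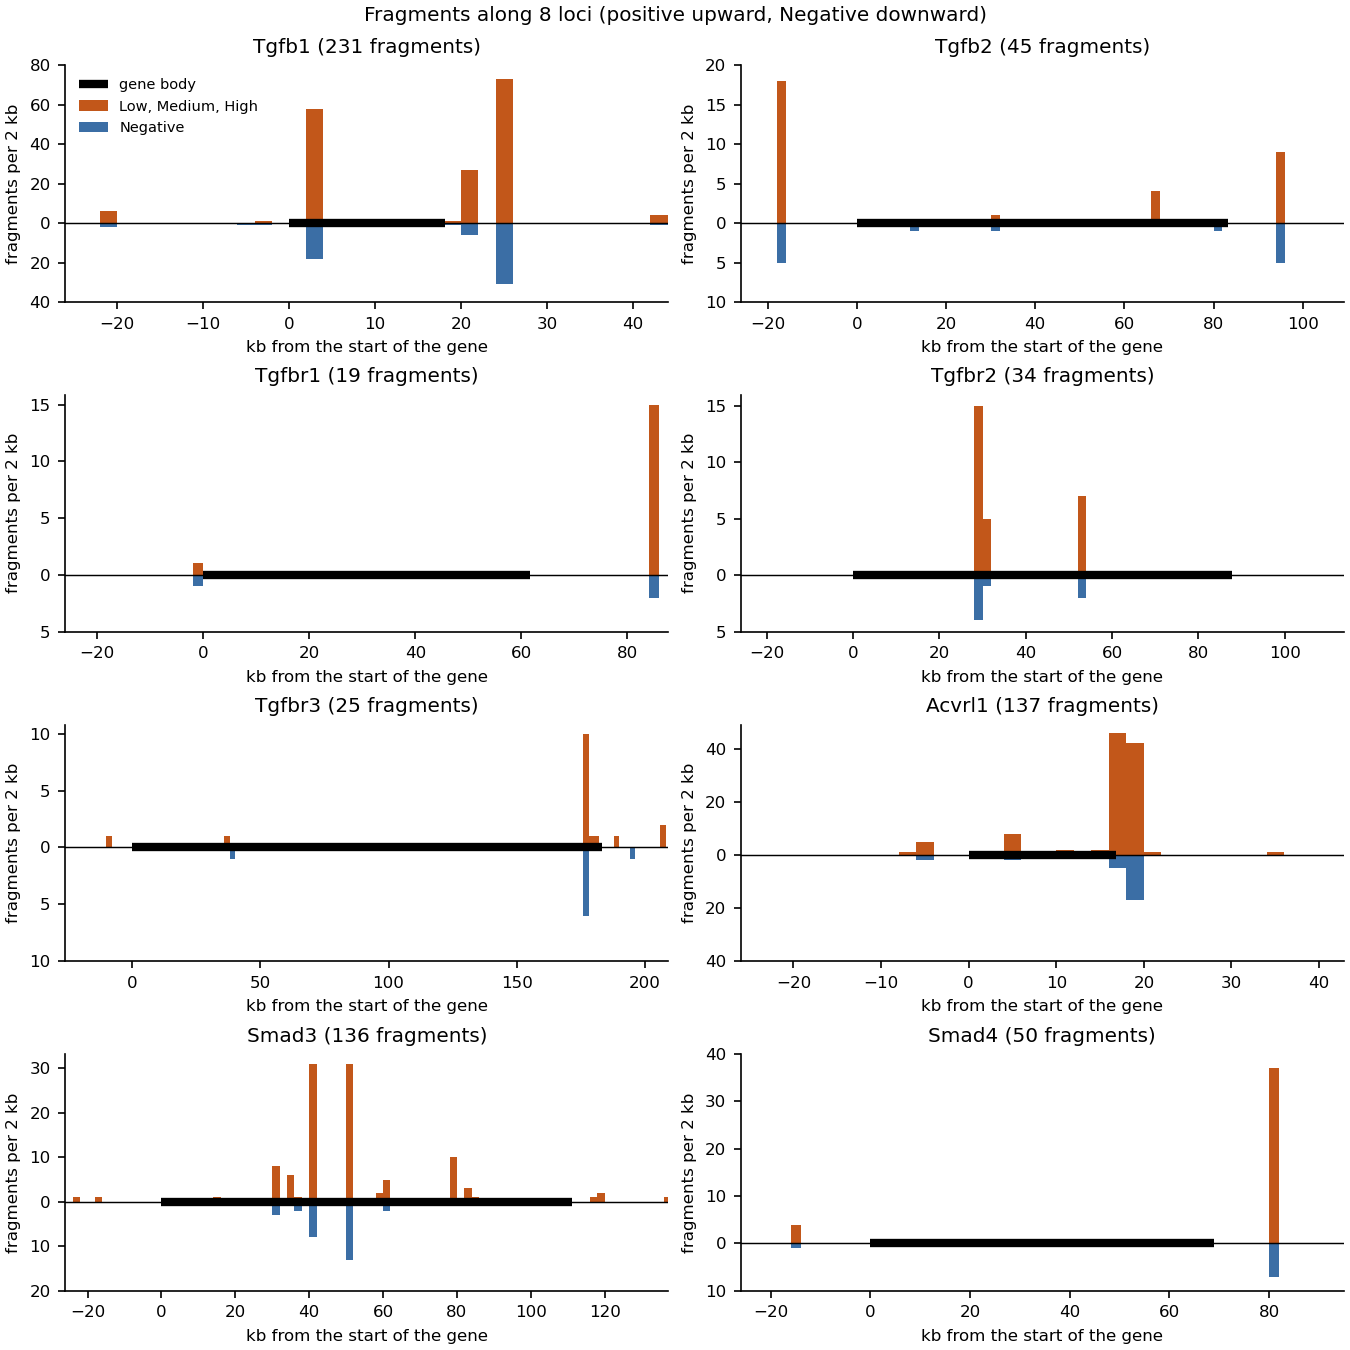
Fragments over all lists in bins of 2 kb along 8 loci, with the distance from the start of the gene in kb on the horizontal axis and fragments per bin on the vertical axis, positive ones (Low, Medium, High) upward and Negative ones downward. The black bar is the gene body, and most fragments of each locus fall in 1 to 3 bins, such as the bins around 2 kb, 21 kb and 25 kb at Tgfb1.

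None of the 679 fragments had its centre within 1 kb of a transcription start site, as 1.65% of all fragments had. The nearest came within 1563 bp of the start of Acvrl1 and 1590 bp of that of Tgfbr1. The values therefore describe fragments away from start sites, and the promoters of the 10 genes are not described here. The study's methods also name later steps, which drop fragments seen in a library of untransfected cells and keep those in open chromatin of the matching stage. A further step sets fragments near a transcription start site apart as promoter fragments. Which of these steps the lists had passed is not stated. A count at a stage or near a start site can therefore depend on them, and their part in any value was not tested. Positive fragments were concentrated in few places. Of 502 positive fragments summed over the sorts, 404 (80.5%) lay in the 13 regions with at least 10 each, whereas 31 of the 65 regions held a single fragment (47.7%, against 55.0% of all regions). Of the 54 regions with any positive fragment, 9 had one in both replicates (16.7%, against 8.14% of all 63070 such regions), and 7 had one at all 5 stages (13.0% against 7.39%). The regions here also held more fragments, and 14.8% of them against 6.24% of all had 20 or more positive ones.

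The sequences below are 200 bases centred on the base covered by the most different positive fragments, and they are shown because each region was the one of its locus with the most positive fragments, save for Tgfb1. They were read from the RefSeq GRCm38.p6 (mm10) genome, 5′ to 3′ on the plus strand, with capitals for words searched on both strands. For SMAD proteins the word was CAGAC, with GTCTAGAC as its palindrome, and for the factor AP-1 it was TGANTCA. The word for TEAD factors was GGAATG, that for RUNX factors TGTGGT and that for GATA factors AGATAA. For the ETS family CCGGAA was searched, for the SOX family ACAANGG, for E-box factors CAGCTG, and for CTCF its consensus. The ETS and TEAD words can overlap, as they do at Tgfbr1. The most populated Tgfb1 region lies in an untranslated exon part and the Smad2 and Smad4 regions are not printed here, so Tgfb1 is shown by its region in the intron.
Tgfb1 region 2, chr7:25689313-25689512, plus strand: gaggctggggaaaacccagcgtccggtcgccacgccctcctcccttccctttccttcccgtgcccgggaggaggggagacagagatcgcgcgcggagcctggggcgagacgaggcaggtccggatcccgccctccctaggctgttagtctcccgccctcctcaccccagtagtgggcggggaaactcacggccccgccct
Tgfb2 region 1, chr1:186722000-186722199, plus strand: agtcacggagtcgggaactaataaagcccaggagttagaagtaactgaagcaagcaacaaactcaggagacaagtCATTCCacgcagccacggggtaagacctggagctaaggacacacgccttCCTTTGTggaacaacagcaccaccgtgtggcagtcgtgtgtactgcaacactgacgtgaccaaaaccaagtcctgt
Tgfbr1 region 1, chr4:47438054-47438253, plus strand: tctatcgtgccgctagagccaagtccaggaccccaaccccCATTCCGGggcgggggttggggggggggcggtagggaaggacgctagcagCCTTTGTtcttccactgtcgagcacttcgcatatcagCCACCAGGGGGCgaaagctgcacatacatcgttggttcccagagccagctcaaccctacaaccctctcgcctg
Tgfbr2 region 1, chr9:116145246-116145445, plus strand: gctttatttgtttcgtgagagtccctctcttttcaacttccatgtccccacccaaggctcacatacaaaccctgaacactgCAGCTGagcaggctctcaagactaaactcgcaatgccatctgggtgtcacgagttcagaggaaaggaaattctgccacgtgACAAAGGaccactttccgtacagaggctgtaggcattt
Tgfbr3 region 1, chr5:107111925-107112124, plus strand: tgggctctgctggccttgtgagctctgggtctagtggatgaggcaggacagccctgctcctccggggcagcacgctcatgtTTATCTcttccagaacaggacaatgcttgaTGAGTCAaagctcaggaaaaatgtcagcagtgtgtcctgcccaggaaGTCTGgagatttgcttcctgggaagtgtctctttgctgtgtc
Acvrl1 region 1, chr15:101145512-101145711, plus strand: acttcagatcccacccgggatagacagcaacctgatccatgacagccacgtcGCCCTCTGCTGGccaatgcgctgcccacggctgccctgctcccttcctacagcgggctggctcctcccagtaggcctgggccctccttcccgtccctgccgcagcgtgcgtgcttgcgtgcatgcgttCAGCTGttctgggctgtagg
Smad3 region 1, chr9:63716255-63716454, plus strand: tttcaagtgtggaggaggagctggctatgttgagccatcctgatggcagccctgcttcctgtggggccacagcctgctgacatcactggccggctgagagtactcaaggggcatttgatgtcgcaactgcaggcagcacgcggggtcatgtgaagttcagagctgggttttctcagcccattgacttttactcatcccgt

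Across 63056 windows of this length around all regions with a positive fragment, CAGAC occurred in 43.4%, the SMAD palindrome in 0.205%, the AP-1 word in 10.3%, TEAD in 13.3%, RUNX in 16.8%, GATA in 11.9%, ETS in 3.52%, SOX in 12.3%, the E-box in 14.5% and CTCF in 3.09%. Of 14 windows at the regions named here, unprinted ones included, 5 held CAGAC, 4 AP-1, 3 TEAD, 1 GATA, 2 ETS, 4 SOX, 4 the E-box and 2 CTCF, and the RUNX word and the palindrome were in none. The 2 CTCF matches were at position 53 of the Acvrl1 window and position 128 of the Tgfbr1 window, counted from the first base shown. The Tgfbr3 window held a GATA word at position 82, an AP-1 word at 112 and a SMAD word at 159. The Tgfb1 window in the intron held no word searched and was 70.5% GC, against a median of 50% and quartiles of 45.5% and 54.5% over all windows. A match is a run of letters and not a measured binding site.

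Positive and negative fragments were then compared. For each locus with at least 20 fragments, a Cochran-Mantel-Haenszel (CMH) test with the 10 sorts as strata gave an odds ratio, above 1 where the locus took a larger share of positive than of negative fragments. Of 9259 gene loci tested, 0.0432% were called with more positive and 0.0324% with fewer positive fragments after Benjamini-Hochberg adjustment at 0.05. None of the 7 loci of the pathway that could be tested (Tgfb1, Tgfb2, Tgfbr2, Tgfbr3, Acvrl1, Smad3 and Smad4) was called, and none had an unadjusted p under 0.05, as 3.32% of all tested loci had. An exact sign-flip permutation test over the 10 sorts (two-sided) called 0 of all the loci. With 10 sorts the smallest p it can give is too large for a single locus to pass adjustment over 9259 loci. Many loci would have to reach that p together, so this 0 says little about any locus. The median odds ratio of the 7 was 0.950, against 1.01 over all tested loci. In total 76.6% of the 679 fragments were in positive gates, against 77.5% of all fragments.

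Among the ligands, Tgfb1 encodes the isoform best known in blood and endothelial cells. Its positive fragments per 10000 of a sort ran from 2.46 (lowest) through a median of 4.94 to 5.76 (highest) over the 10 sorts, and its negative fragments from 0 through 5.38 to 11.8. Every sort had a positive fragment, and the 2 distributions overlapped. The sorts were evenly split, with the positive value higher in 5 and the negative value higher in 5. The odds ratio was 0.750 (95% interval 0.552 to 1.02, unadjusted p = 0.0744, adjusted p = 1 by the CMH test). The exact permutation test gave an unadjusted p of 0.900. Without the fragments shared between Negative and positive gates the ratio was 0.651 (0.456 to 0.928, unadjusted p = 0.0196, adjusted p = 0.847 by the CMH test), an interval wholly below 1. The value turned on the replicate, being 0.679 (0.492 to 0.938) without replicate 2 and 1.67 (0.600 to 4.64) without replicate 1.

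Tgfb2 encodes an isoform with large parts in heart and vessel development. Its positive values ran from 0 through 0.728 to 2.88 per 10000 and its negative values from 0 through 1.18 to 6.54, again overlapping. The highest negative values were those of HB, 4.75 and 6.54 in the 2 replicates, where the positive values were 0.770 and 0. They rest on 4 and 2 negative fragments. The odds ratio over all sorts was 0.622 (0.319 to 1.21, adjusted p = 1 by the CMH test), from 30 positive and 13 negative fragments. Without HE1 of replicate 1, which held 7 positive and 1 negative fragments, it was 0.448 (unadjusted p = 0.0469 by the CMH test). The lowest adjusted p of this locus under any alternative was 0.878.

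Among the receptors, Acvrl1, which encodes the endothelial type I receptor ALK1, gave 108 positive and 28 negative fragments. Positive values ran from 0 through 2.69 to 4.36 per 10000 and negative values from 0 through 1.07 to 4.75, and they overlapped. The odds ratio was 1.17 (0.758 to 1.82, adjusted p = 1 by the CMH test). With flanks of 50 kb, which take in the neighbouring receptor gene Acvr1b, it was 0.882 (positive 244, negative 79). The type II receptor gene Tgfbr2 had 25 positive and 7 negative fragments and an odds ratio of 0.950 (0.391 to 2.31). The co-receptor gene Tgfbr3 had 17 and 8 and an odds ratio of 0.884 (0.384 to 2.03), which was 0.500 (0.200 to 1.25) without HP of replicate 2. The type I receptor gene Tgfbr1 had 16 and 3, under the minimum of 20. With a minimum of 10 its odds ratio was 1.98 (0.508 to 7.70, adjusted p = 1 by the CMH test).

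Among the transducers, Smad3, which encodes a receptor-activated SMAD, had positive values from 1.44 through 2.34 to 4.61 per 10000 and negative values from 0 through 2.12 to 5.08. All 10 sorts had a positive fragment and 7 had a negative one, and the distributions overlapped. Its 103 positive and 31 negative fragments gave an odds ratio of 1.02 (0.673 to 1.54). Smad4, which encodes the common partner of the activated SMADs, had 40 positive and 8 negative fragments, and 39 of the 40 were in replicate 1. Its odds ratio was 1.46 (0.652 to 3.27, adjusted p = 1 by the CMH test). It was 2.54 (0.671 to 9.61) without HE1 of replicate 1 and 2.88 (0.759 to 10.9) without the shared fragments, with 3 negative fragments left in either case. Smad2 had 2 positive fragments, 1 in ES and 1 in HE1 of replicate 2, and no negative one. With flanks of 50 kb it had 39 positive and 21 negative fragments and an odds ratio of 0.486 (0.280 to 0.844, unadjusted p = 0.0145, adjusted p = 1 by the CMH test). All but 2 of these fragments lay beyond the 25 kb flanks, and 36 positive and all 21 negative ones were in replicate 1. With all fragments counted the intervals of the 7 tested loci held 1. Each also held a change of the odds by 1.5 times in at least 1 direction, so a difference of that size was not excluded in that direction. The intervals of Tgfb1 (up to 1.02) and Tgfb2 (up to 1.21) did not reach 1.5. They hold counting error alone, so they do not exclude a rise of that size. The Tgfb1 ratio was 1.67 without replicate 1.

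**Figure D2:**
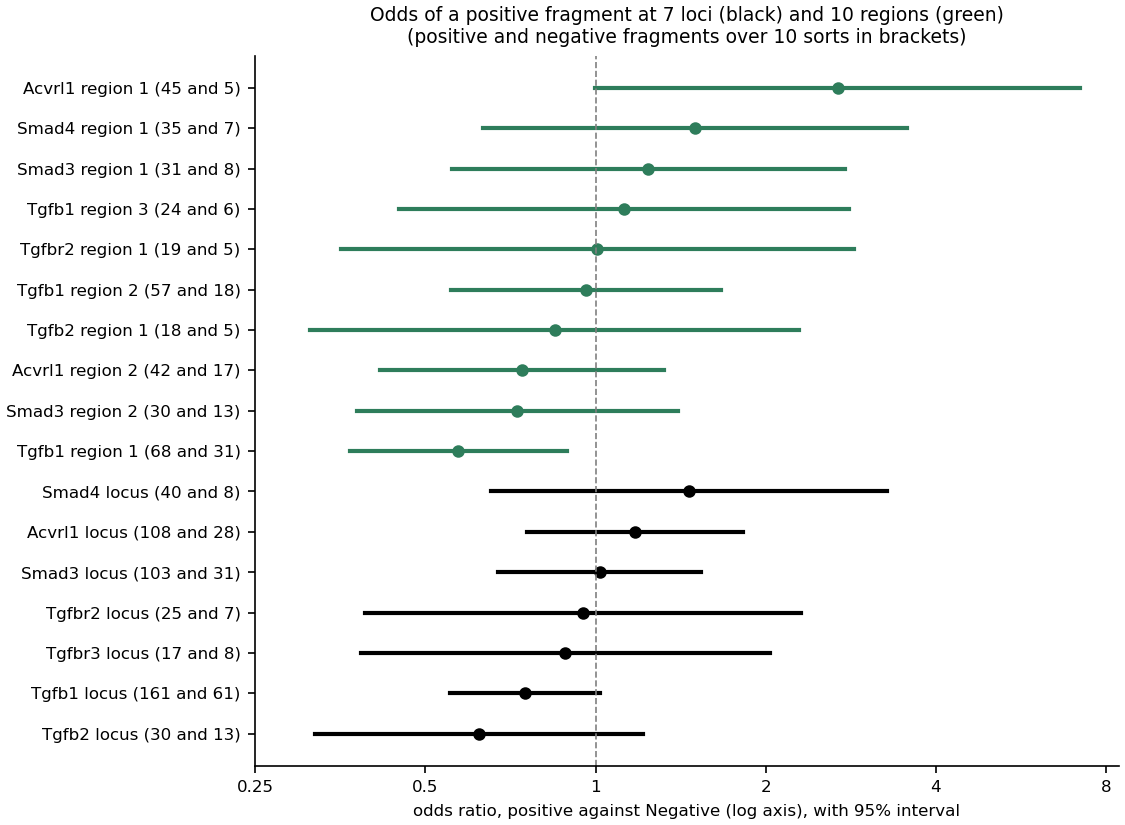
Odds ratios of positive against Negative fragments (log axis) with 95% intervals for the 7 tested loci (black) and the 10 tested regions (green), and the positive and negative fragments over 10 sorts in brackets. The points run from 0.572 (Tgfb1 region 1) to 2.68 (Acvrl1 region 1), and the interval of Tgfb1 region 1 is the one that lies wholly on 1 side of 1.

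Within a locus the test was repeated on single regions with at least 20 fragments. Of 5530 regions tested in the series, 0.181% were called because positive fragments were fewer than the strata gave, and 0% because they were more. Of the regions here 10 could be tested. None was called. Their median odds ratio was 0.985, against 0.995 over all, and 1 of the 10 had an unadjusted p under 0.05, as 3.45% of all tested regions had.

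That one was the most populated region of Tgfb1, chr7:25711029-25712389, centred 24.9 kb beyond the gene's start. By annotation it lies 6.79 kb past the end of Tgfb1 in the 3′ untranslated part of the last exon of the neighbouring gene Ccdc97, whose start is 7.17 kb away. It held 104 fragments, 62 of them different. Its positive fragments in the replicate 1 sorts were 4 in ES, 8 in HB, 22 in HE1, 9 in HE2 and 7 in HP, and the negative ones were 3, 3, 15, 2 and 7. In replicate 2 the positive counts were 2, 1, 14, 1 and 0 and the negative ones 0, 0, 0, 0 and 1. Positive fragments were present in 9 of 10 sorts. The 68 positive fragments compared with 77.9 expected, an odds ratio of 0.572 (0.367 to 0.890, unadjusted p = 0.0173, adjusted p = 1 by the CMH test). Without the shared fragments the ratio was 0.432 (0.261 to 0.716, unadjusted p = 0.00146, adjusted p = 0.235 by the CMH test), the lowest adjusted p of the alternatives tried, and the exact sign-flip test gave an unadjusted p of 0.795.

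The region also held the fragment found in most lists. A fragment of 292 bp at chr7:25711799-25712090 was in 13 of 40 lists, at all 5 stages and in both replicates. In replicate 1 it was in ES High, HE2 High and the Negative lists of HE1, HE2 and HP. In replicate 2 it was in ES Medium, all 3 positive lists of HB, HE1 Low and High, HE2 Medium and HP Negative. The same fragment thus stood in both Negative and positive gates, within HE2 of replicate 1 in both at once. In ES, HB and HE2 of replicate 2, all positive fragments of the region were this one or one of 291 bp with the same start. At the 10 loci 16 different fragments (3.12%) were in both replicates, against 0.956% of all, and 58 (11.3%) were at more than 1 stage, against 10.4% of all. The fragment of 291 bp and one of 286 bp with the same start were among the 16. Fragments that differ by a few bases at 1 end count as different, so the 16 are not all separate places.

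The 2 other Tgfb1 regions that could be tested had odds ratios near 1 with wide intervals. The region in the first intron, chr7:25688950-25689842, 2.41 kb after the start, had 57 positive and 18 negative fragments and an odds ratio of 0.963 (0.556 to 1.67). It had positive fragments at all 5 stages, with 55 of the 57 in replicate 1. The region at chr7:25707872-25708610, 3.14 kb past the gene's end, had 24 and 6 (odds ratio 1.12, 0.450 to 2.81). There 22 of the 24 positive fragments came from HE1 and HE2 of replicate 1, with 12 and 10.

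At Acvrl1 a pair of neighbouring regions past the gene's end held 87 of the 108 positive fragments. The first, chr15:101145334-101145856, overlaps the last bases of the gene and is centred 0.276 kb beyond it, 17.1 kb from the start. It had 45 positive and 5 negative fragments, with 3 positive in ES, 8 in HB, 13 in HE1, 13 in HE2 and 5 in HP of replicate 1, and 3 in HB of replicate 2. No sort had more than 1 negative fragment there. Its odds ratio, 2.68 (0.997 to 7.20, unadjusted p = 0.0692, adjusted p = 1 by the CMH test), was the highest of the 10, and without replicate 2 it was 3.67 (1.12 to 12.0, adjusted p = 1). It had 22 fragments in the High gate, 14 in Medium and 10 in Low, where the sizes of the lists would give 16.1, 18.4 and 11.5. The gates were not compared by a test at single regions. The second, chr15:101147449-101148680, had 42 positive and 17 negative fragments, and 14 of the 17 were in HE1 of replicate 1. Its odds ratio was 0.741 (0.415 to 1.32), and without that sort it was 1.51 (0.450 to 5.07), on the other side of 1. Whether the 2 regions differed from each other was not tested.

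Smad3 carried its fragments inside the gene, 130 of 136 in the gene body. The regions at chr9:63716093-63716724 and chr9:63706211-63706723, 41.6 kb and 51.5 kb after the start and both in introns, had 31 positive and 8 negative and 30 positive and 13 negative fragments. Their odds ratios were 1.24 (0.557 to 2.76) and 0.727 (0.379 to 1.40), and the first was 2.09 (0.495 to 8.79) without the shared fragments. In the first, replicate 1 gave 7 positive fragments in HB, 17 in HE1, 5 in HE2, 2 in HP and none in ES. In the second it gave 4 in ES, none in HB, 14 in HE1, 9 in HE2 and 2 in HP. A region further in, chr9:63677867-63678551, at 79.8 kb, had 10 positive fragments and no negative one. It held too few fragments to be tested.

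The region with most positive fragments is given for each remaining locus except Smad2 and Tgfb3. For Smad4 it lay at chr18:73622866-73623581, 11.5 kb past the gene's end, with 35 positive and 7 negative fragments (odds ratio 1.497, 0.631 to 3.55, and 2.38 without HE1 of replicate 1). The positive ones were 5 in ES, 7 in HB, 9 in HE1, 9 in HE2 and 5 in HP, all of replicate 1. For Tgfb2 it lay 16.1 kb upstream, at chr1:186721913-186722257, in an intron of Rrp15, with 18 positive and 5 negative fragments (0.847, 0.313 to 2.29). Of those 18, 9 were in HP of replicate 1. Another Tgfb2 region, chr1:186610018-186610314, had 9 positive and 4 negative fragments, all of replicate 1. For Tgfbr2 the region with most positive fragments was the intronic chr9:116145153-116145699, 30.0 kb from the start, with 19 and 5 (1.01, 0.354 to 2.87). For Tgfbr1 it was chr4:47437805-47438408, 23.2 kb past the gene's end and so just inside the window, with 15 positive and 2 negative fragments. For Tgfbr3 it was chr5:107111682-107112240 in an intron 178 kb from the start, with 10 positive and 6 negative fragments in HE1 and HE2 of replicate 1 alone. These regions of Smad4, Tgfb2, Tgfbr1, Tgfbr2 and Tgfbr3 had no positive fragment in replicate 2.

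**Figure D3:**
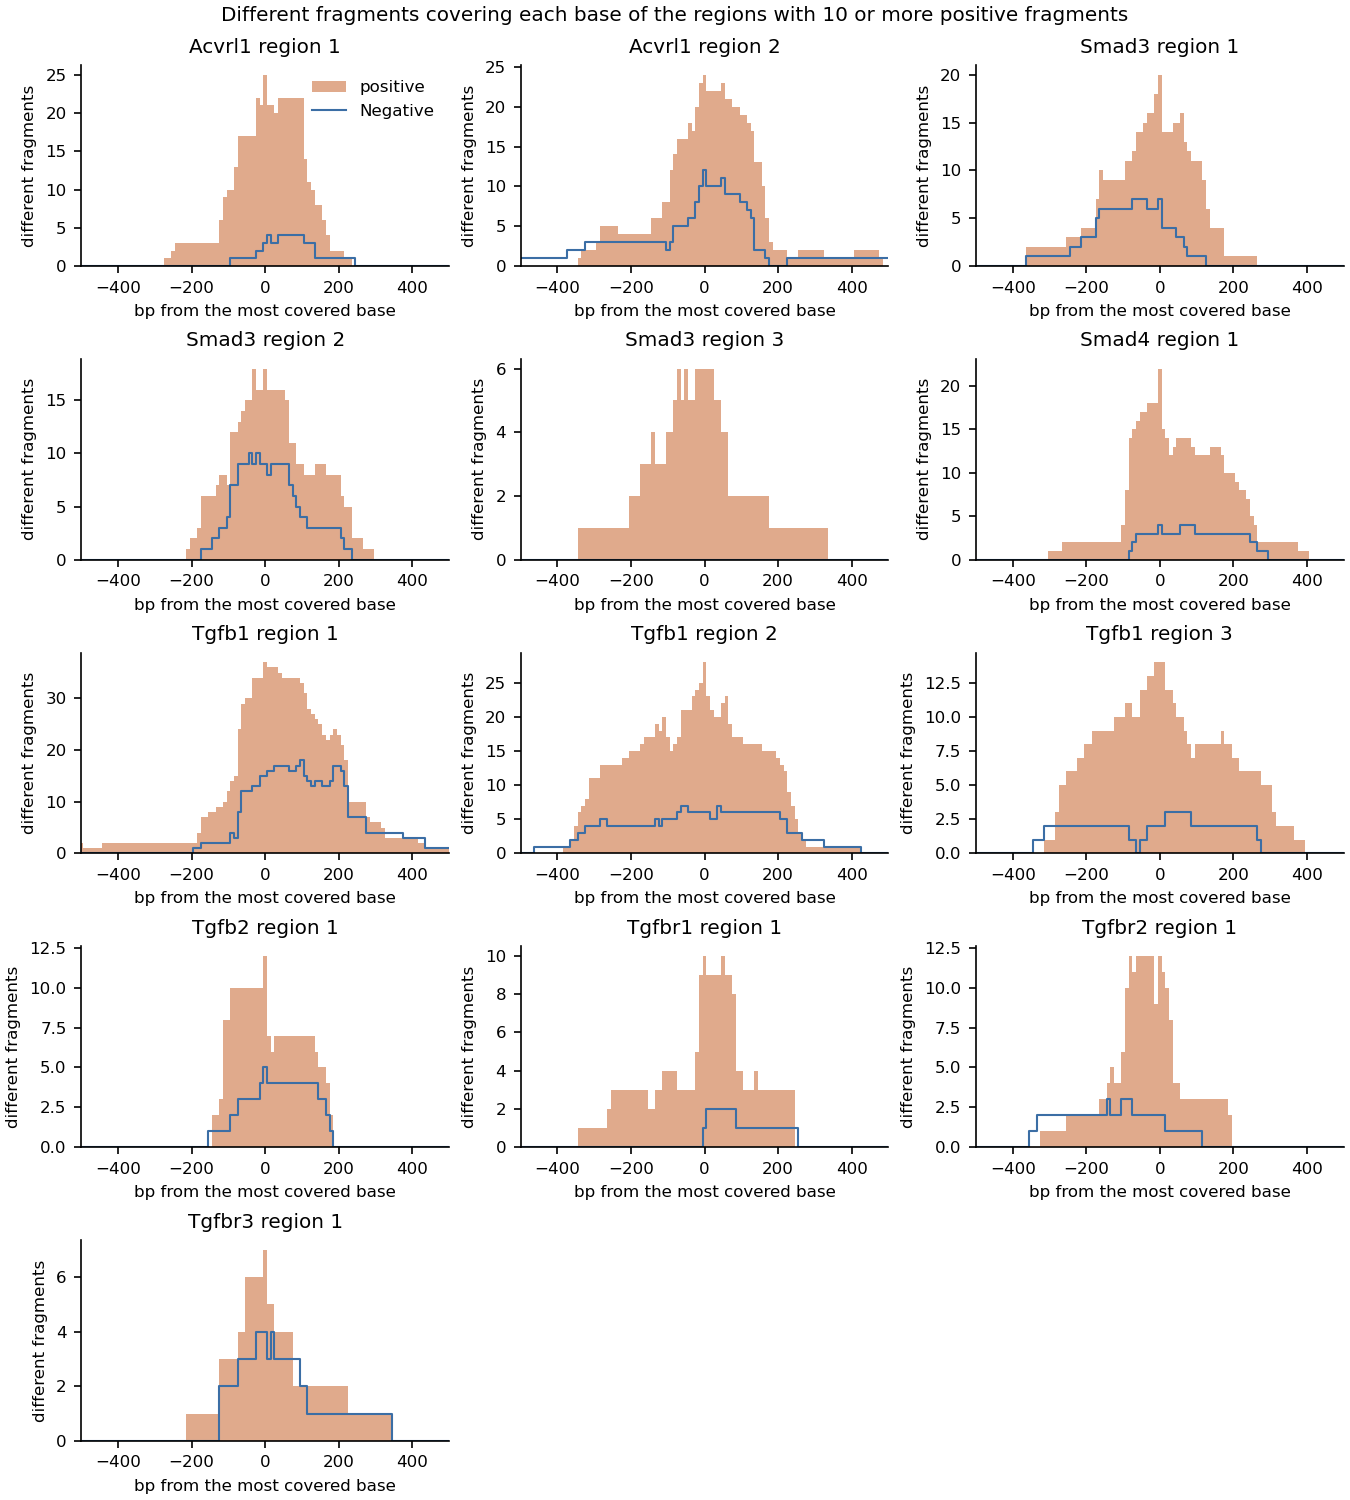
Number of different positive fragments (filled) and different Negative fragments (line) that cover each base, by distance in bp from the most covered base, for the 13 regions with 10 or more positive fragments; distances run in the direction of the gene. Positive cover peaks at 37 different fragments in Tgfb1 region 1 and at 25 in Acvrl1 region 1, and Negative fragments cover the same stretch in each region except Smad3 region 3, which has none.

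The brightness of the reporter was compared next, by the same test between the High and Low gates. Of 5875 loci tested, 0.017% were called with more High and 0% with more Low fragments. Of the 4 loci of the pathway with enough fragments (Tgfb1, Acvrl1, Smad3 and Smad4), none was called or had an unadjusted p under 0.05, as 4.99% of all had. Smad3 had 23 High and 32 Low fragments. Per 10000, its High values ran from 0 through 0.612 to 3.37 over the 10 lists and its Low values from 0 through 2.12 to 5.12, and they overlapped. The odds ratio was 0.609 (0.328 to 1.13, unadjusted p = 0.175, adjusted p = 1 by the CMH test). The ratios of the others were 1.15 for Tgfb1 (55 High, 51 Low), 1.16 for Smad4 (17 and 11) and 0.994 for Acvrl1 (33 and 23). The Medium gate held 53 fragments at Acvrl1, 64 at Tgfb1 and 50 at Smad3, where the sizes of the lists would give 45.1, 62.6 and 42.0. At Smad4 it held 14, under the 16.9 from the list sizes. Of the loci not tested here, Tgfb2 had 15 against 13.4, Tgfbr1 4 against 6.66, Tgfbr2 10 against 11.4 and Tgfbr3 5 against 5.95. Medium lists made up 37.2% of all fragments of positive lists, and no test was made of that gate.

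Positive fragments were then followed over the 5 stages. A limma F-test on voom-weighted positive counts called 0% of 7954 loci with at least 20 positive fragments. It gave an unadjusted p under 0.05 at 50 of them (0.629%), and limma-trend also called none. None of the 6 pathway loci tested (Tgfb1, Tgfb2, Tgfbr2, Acvrl1, Smad3, Smad4) was called, with adjusted p = 0.9999 for each.

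Tgfb1 had positive fragments in every sort. Its positive values per 10000 in replicates 1 and 2 were 5.05 and 4.43 in ES, 5.39 and 2.46 in HB, 4.90 and 5.17 in HE1, 4.97 and 5.76 in HE2, and 3.28 and 3.84 in HP. Those of replicate 2 rested on 4 fragments in ES, 3 in HB, 18 in HE1, 2 in HE2 and 2 in HP. The log2 differences from ES were -0.29 ± 0.82 (SE) for HB, -0.0014 ± 0.78 for HE1, 0.16 ± 0.82 for HE2 and -0.40 ± 0.83 for HP by limma. Each difference was smaller than its SE. This also held with replicate as a block, where HB stood at -0.24 ± 0.61. Smad3 had 1.44 and 2.22 in ES, 1.80 and 2.46 in HB, 4.61 and 2.01 in HE1, 2.92 and 2.88 in HE2, and 2.77 and 1.92 in HP. The highest value was HE1 of replicate 1, and its partner in replicate 2 was below all but 3 of the other sorts.

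Tgfbr2 had the lowest unadjusted p of the 6, 0.156 by limma. It had no positive fragment in ES or HB in either replicate. In replicate 1 it had 0.883 per 10000 in HE1 (9 fragments), 1.61 in HE2 (11) and 1.26 in HP (5), and in replicate 2 none at any stage. No negative fragment was found in ES or HB either. In replicate 1 a count of 0 allows up to 1.08 per 10000 in ES and 0.770 in HB, so the HE1 value lay within the limit for ES, and those of HE2 and HP above both limits. In replicate 2 these limits are 3.33 and 2.46, above all values of the locus. Whether the lists had been filtered by open chromatin at each stage is not stated, and the part of such a step in these zeros was not tested. Among the 2158 gene loci with 20 to 30 positive fragments, 68 (3.15%) also had none in ES and HB. The fitted log2 difference between HE2 and ES was 2.34 ± 1.24 (SE), and it depends on the prior count since ES was at 0.

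Acvrl1 had 1.08 and 3.33 per 10000 in ES, 4.36 and 2.46 in HB, 4.12 and 1.15 in HE1, 2.92 and 0 in HE2, and 4.03 and 0 in HP. In replicate 1 all later stages lay above ES. In replicate 2 the values of HB and HE1 lay below it, on 3 and 4 fragments against 3 in ES. The counts of 0 in HE2 and HP of replicate 2 allow up to 8.64 and 5.76 per 10000, so they cannot be placed below ES. Smad4 had 1.80 in ES, 1.80 in HB, 1.08 in HE1, 1.61 in HE2 and 1.26 in HP of replicate 1, and 0.287 in HE1 alone in replicate 2. Tgfb2 was highest in HP of replicate 1 (2.27, 9 fragments) and in HE2 of replicate 2 (2.88, 1 fragment). Tgfbr1 and Tgfbr3 had too few positive fragments to be tested. Tgfbr1 had 0.361 to 1.01 per 10000 at all 5 stages of replicate 1, and in replicate 2 a single fragment in HE2.

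**Figure D4:**
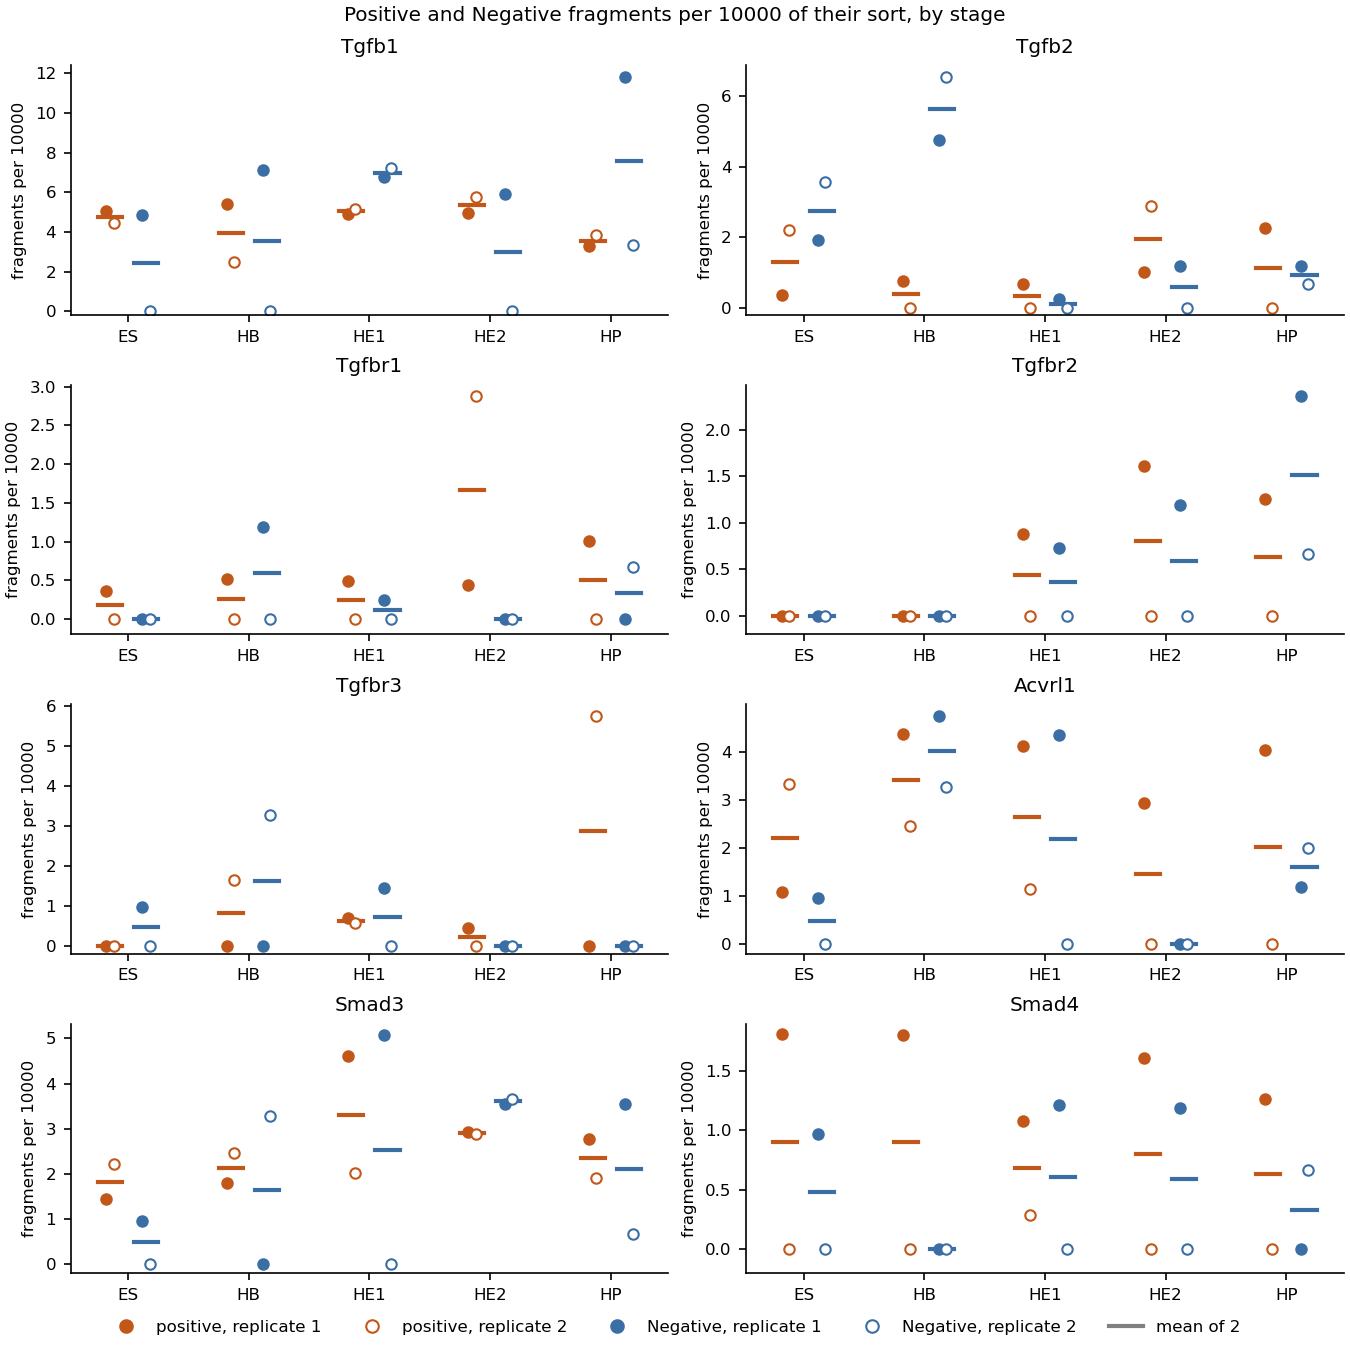
Positive (orange) and Negative (blue) fragments per 10000 of their sort at the 5 stages for 8 loci, with filled points for replicate 1, open points for replicate 2 and a line at the mean of 2. Tgfb1 positive values lie between 2.46 (3 fragments) and 5.76 (2 fragments) in every sort, whereas Tgfbr2 is at 0 in ES and HB and in all positive lists of replicate 2.

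Other genes of the pathway were taken from a fixed list of 39, all with a RefSeq locus, of which 36 had a positive fragment and 27 could be tested. None was called in positive against negative fragments, none had an unadjusted p under 0.05, and the odds ratio was above 1 in 15 and below 1 in 12, with a median of 1.04 against 1.01 over all tested loci. Among the genes listed for carrying or releasing the ligand, with the co-receptor Eng among them, 9 of 13 were tested. Ltbp4, a latent ligand binding protein gene, gave 296 positive and 79 negative fragments (odds ratio 1.11), and Eng, which encodes endoglin of endothelial cells, 172 and 51 (0.908). Nrros, which anchors latent TGF-beta on myeloid cells, had 13 and 10 (0.488, 0.198 to 1.20), the integrin gene Itgav 29 and 13 (0.680), and the membrane protease gene Mmp14 36 and 16 (0.685). These were the lowest p-values among ratios below 1, the smallest 0.184 unadjusted by the CMH test.

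The lowest p-values among ratios above 1 were those of the activin receptor gene Acvr2b, with 49 positive and 5 negative fragments (2.58, 0.973 to 6.84), of the ubiquitin ligase gene Smurf2, with 55 and 9 (1.61), and of the co-repressor gene Tgif1, with 30 and 5 (1.66). Among the inhibitors and co-repressors 7 of 8 were tested, with 4 ratios above 1. Of the other receptors and receptor partners 4 of 8 were tested, of the related ligands 3 of 5, and of the known targets 4 of 5. Acvr1c had no fragment. None of the 20 listed genes tested between High and Low and none of the 26 tested over the stages was called. Without adjustment, 2 of the 20 were under 0.05. Ltbp3 had an odds ratio of High against Low of 0.476 (unadjusted p = 0.0458, adjusted p = 0.985 by the CMH test), and Acvr2b one of 2.69 (unadjusted p = 0.0499, adjusted p = 0.985 by the CMH test). Of the 26, 1 was, Nodal, with an unadjusted p of 0.0434 and an adjusted p of 0.9999 by limma. These 3 were named after their values were seen. The windows of Acvrl1 and Acvr1b overlap, and a fragment in the overlap was counted for both genes.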

How the data were processed

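Per the labels and the study's methods, the insert of each sorted population went through 25 to 30 cycles of PCR and paired-end sequencing. Trim Galore served the authors for trimming and Bowtie2 for alignment to mm10, and they used SAMtools, bedtools and HOMER to obtain and annotate unique fragments. For these fragments no tool versions are stated, nor which of the study's later filters the lists had passed. The deposited values are other than counts or signal. They are start and end coordinates of unique fragments, 1 list per library, so a fragment counts once whatever its reads. PCR without molecular identifiers can give several fragments from 1 molecule. The CMH p-values, the 95% intervals and the 3 counts that an empty list allows therefore reflect counting error alone.

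Gene bodies were those of curated RefSeq transcripts (GRCm38.p6). Loci and regions with at least 20 fragments were tested by a CMH test with continuity correction over the 10 sorts, and positive counts over stages by a limma F-test on voom weights, all adjusted over the whole series by the Benjamini-Hochberg method. Python 3.11 tools (scipy, pandas) and limma 3.58.1 in R 4.3.3 were used, and the tests were tested on simulated data. The 10 members, the regions named (the one with most positive fragments of each locus and up to 3 with at least 10), the listed pathway genes (named by the 3 lowest p in each direction) and the motifs were chosen with earlier results of these data known. Replicate numbers were taken to pair the sorts. The stages of a replicate deviated together in all 10 pairs of stages (correlations 0.331 to 0.493 across loci). Replicate 2 had fewer positive fragments at every stage, such as 3471 against 68427 in HE2. The part of depth in these correlations was not tested, so they do not establish the pairing. The stage fit given here had no replicate block. Alternatives were other windows (gene body, 10 kb, 50 kb, any overlap), minimums (10, 40), collapsing of fragments with both ends within 5 bp, pooling or blocking of replicates, an exact permutation test, limma-trend, and leaving out sorts, shared fragments or 1 library.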

Additional observations from a re-analysis of the deposited data

Results flagged for a closer look

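At 3 loci both sorts of 1 stage had a higher share of positive than of negative fragments and both sorts of another stage the reverse. The difference between the stages was not tested in any of them. How many of all gene loci show such a pattern was not counted, so whether 3 is many is not known. The stages were picked after their values were seen. At Tgfb1, positive minus negative was 0.221 and 4.43 fragments per 10000 in the 2 ES sorts and -2.04 and -1.86 in the HE1 sorts, so the stage means differed by 4.28. The larger ES value comes from replicate 2, whose Negative list held no Tgfb1 fragment. At Acvrl1, ES stood at 0.116 and 3.33 and HB at -0.815 and -0.383, and the means differed by 2.32. At Smad3, ES stood at 0.477 and 2.22 and HE2 at -0.786 and -0.636, and the means differed by 2.06. In all 3 the ES value of replicate 2 rested on a Negative list without a fragment of that locus. Other values also rested on few fragments. The HE2 value of Smad3 in replicate 2 came from 1 positive and 1 negative fragment. At Acvrl1, HB of replicate 2 and ES of replicate 1 each had 3 positive and 1 negative.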

How the results depend on the processing

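No locus or region of the pathway was called under any alternative in the comparisons of positive with negative, High with Low, or the stages, and 344 of 380 odds ratios or mean differences of single loci and regions kept their direction. The calls over all loci and regions moved more, and the cause was not tested. For the exact sign-flip test a fall to 0 was close to fixed in advance. With 10 sorts the smallest p it can give is too large for a single locus or region to pass adjustment. Called gene loci, positive against negative, went from 7 to 0 with near-identical fragments collapsed and with the exact sign-flip test (590 unadjusted), to 11 with a minimum of 10, 2 with 40, and 13 with shared fragments left out or with 50 kb flanks, and lay between 2 and 11 when a sort or replicate was left out, with 11 without HE1 replicate 1 and 3 without ES, HB, HE1 or HP replicate 2. Called regions went from 10 to 0 when collapsed or with the exact test, 17 with a minimum of 10, and 5 (without replicate 2 or HE1 replicate 2) to 17 (without HP replicate 2). High against Low went from 1 to 0 when collapsed, with a minimum of 40, with the exact test and with shared fragments left out (chosen after seeing the data), to 5 with a minimum of 10, and between 0 and 6 (without ES replicate 1).

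Without the replicate block, that is with the replicates of a stage pooled, 9 loci and 23 regions were called in positive against negative and 96 loci in High against Low, and with replicate as a block in the stage fit 0 loci, as without it. No member's call changed. Odds ratios that crossed 1 were those of Tgfbr2 (1.06) and Acvrl1 in High against Low (1.30) and Tgfb2 region 1 (1.26) when pooled, Smad3 with the gene body (0.979), 10 kb flanks (0.995) or the Medium list of HE1 replicate 1 left out (0.905, chosen after seeing the data), Acvrl1 (0.882) and Tgfbr2 (1.09) with 50 kb flanks, Tgfbr2 region 1 when collapsed (0.780), without shared fragments (0.823) or without that Medium list (0.839), and Tgfb1 regions 2 (1.04) and 3 (0.796) without shared fragments. In the exact test the mean difference per 10000 had the other sign for Tgfbr3 (0.341), Acvrl1 region 2 (0.0975), Tgfb1 region 2 (0.0379), Tgfbr2 region 1 (-0.170) and Acvrl1 in High against Low (0.165). Leaving out a sort or replicate, ratios crossed 1 for Smad3 (0.961 to 1.23), Tgfb1 (0.679 to 1.67), Tgfbr2 (0.745 to 1.16), Tgfbr3 (0.500 to 1.01), Acvrl1 region 2 (0.628 to 1.51), Tgfb1 region 2 (0.847 to 1.03) and Acvrl1 in High against Low (0.673 to 1.54).

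Depth limits these results. Replicate 2 gave 96 of the 679 fragments, so most regions rest on replicate 1, and few loci hold enough negative fragments to show a change of the odds by 1.5 times.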
